A study of Mus musculus with 17 samples.

Results

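The OAS family was followed through 7 mouse genes, Oasl1, Oasl2, Oas1a, Oas1b, Oas1g, Oas2 and Oas3, taken by gene symbol from the count tables of B cells and of bone marrow-derived dendritic cells (BMDC). All 7 had a row in both tables of 55491 genes, and all 7 passed the filter on low counts in each cell type. OAS proteins are sensors of double-stranded RNA that type I interferon induces. On binding such RNA, the active enzymes make short chains of adenosine joined by 2′-5′ bonds, and these act as second messengers of the antiviral response. The OAS-like proteins carry an OAS unit followed by ubiquitin-like repeats, and in mouse Oasl1 has no synthetase activity whereas Oasl2 has kept it.

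RNA was sequenced from 17 libraries in 6 groups. The BMDC, antigen-presenting cells raised in culture from marrow, were incubated with MSA2 plus IPI-549 (the combination, 2 libraries), with MSA2 alone (3 libraries) or without drug (Control, 3 libraries), and B cells of the spleen were treated in the same ways (3 libraries in each group). MSA2 is a non-nucleotide agonist of STING, the sensor of cyclic dinucleotides that leads to interferon β, and IPI-549 (eganelisib) inhibits PI3Kγ, a lipid kinase found mainly in leukocytes. The series description names KPC mice, a model of pancreatic cancer, as the source of every group, while the genotype label of every library reads WT and gives no strain or age. No group received IPI-549 alone, dose and time are not given, and the labels do not say whether the libraries of a group came from separate mice, so the spread that the p-values rest on may be technical.

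Total counts were 34760025 to 73166643 per library in BMDC and 41093440 to 51433008 in B cells. The BMDC libraries had high levels of myeloid markers, with Itgax (CD11c) at 1510, 1390 and 1870 CPM (counts-per-million values) on average in the combination, MSA2 and Control. In the same order 15 monocyte and macrophage markers summed to 18400 to 19100, 16400 to 19700 and 19800 to 22300 CPM. A list of 13 dendritic cell markers was split. In Control, 6 were higher and 7 lower in BMDC than in B cells (edgeR, adjusted p under 0.05), where 39.3% and 40.6% of genes were. They summed to 4470 to 5110 CPM in BMDC Control and 6370 to 6610 CPM in B cell Control. The summed level of 12 B cell markers was 62.7 to 66.1, 56.2 to 59.2 and 66.9 to 77.1 CPM in BMDC of the combination, MSA2 and Control, far below the B cell libraries. The B cell MSA2 libraries stood apart. In them the summed level of 12 T cell markers was 1150 to 1520 CPM, against 51.4 to 58.7 CPM in the combination and 63.2 to 83.1 CPM in Control, and that of 15 monocyte and macrophage markers was 1610 to 1860 CPM, against 52.6 to 56.3 and 51.6 to 73.6 CPM. For 12 neutrophil markers the sums were 1520 to 1630 CPM with MSA2, 0.504 to 0.951 CPM in the combination and 2.1 to 32.5 CPM in Control, with Control replicate 1 the highest. For 10 NK cell markers they were 562 to 642, 10.1 to 14.5 and 18.0 to 26.3 CPM, and for 9 markers of red cell precursors 1020 to 1200, 17.8 to 21.9 and 21.3 to 43.2 CPM. The 12 B cell markers summed to 4210 to 4800, 8430 to 9480 and 8320 to 8990 CPM in the same order. The B cell MSA2 libraries also carry higher library numbers than all other B cell libraries, while the numbers of the other B cell groups interleave, as do those of the BMDC groups. The library names of B cells and BMDC begin with different numbers. The labels do not say what these numbers mean. Any batch behind them cannot be told apart from the cell type or, within B cells, from MSA2 alone. One BMDC Control library stood apart as well. Ifnb1, the gene of interferon β, had 499 counts in Control replicate 2, against 0 in replicate 1 and 2 in replicate 3.

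The 7 genes lie in 2 clusters on chromosome 5 of the GRCm38 build. Oasl2 (ENSMUSG00000029561, 114896936 to 114912234, plus strand) and Oasl1 (ENSMUSG00000041827, 114923240 to 114937915, plus strand) are neighbours. The synthetase genes are Oas2 (ENSMUSG00000032690, 120730333 to 120749853, minus strand), Oas3 (ENSMUSG00000032661, 120753098 to 120777661, minus strand), Oas1b (ENSMUSG00000029605, 120812635 to 120824163, plus strand), Oas1g (ENSMUSG00000066861, 120876142 to 120887613, minus strand) and Oas1a (ENSMUSG00000052776, 120896256 to 120907521, minus strand). Oas1b is annotated as a polymorphic pseudogene: its full-length form gives mice resistance to flaviviruses, and many laboratory strains carry a premature stop. Oas1a and Oas1g are near copies. Of the 50-base windows of the longest coding Oas1a transcript, 56.9% also occur in that of Oas1g, and 54.1% of those of Oas1g occur in Oas1a, so the split of reads between these 2 genes is uncertain. The other shared windows were at most 1.35%, between Oas1b and Oas1g. The noncoding transcripts that overlap Oas2 and Oasl1 on the other strand had at most 10 counts in any library.

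Promoter windows from RefSeq (GRCm38.p6, 250 bases before to 50 bases after the start) were given for 5 of the 7 genes: Oas1a, Oas1g, Oas3, Oasl1 and Oasl2. They were searched on both strands for the core of the interferon-stimulated response element (ISRE), GAAANNGAAA, which interferon-activated transcription factors recognize, and for the GAS element, TTCNNNGAA. The windows of Oas1a (chr5:120907476-120907775, minus strand), Oas1g (chr5:120887564-120887863, minus strand), Oas3 (chr5:120777610-120777909, minus strand) and Oasl1 (chr5:114922990-114923289, plus strand) are shown, the first 3 because they hold the ISRE core and the last because Oasl1 was called higher in every drug-treated group. Capitals mark the ISRE core.
Oas1a: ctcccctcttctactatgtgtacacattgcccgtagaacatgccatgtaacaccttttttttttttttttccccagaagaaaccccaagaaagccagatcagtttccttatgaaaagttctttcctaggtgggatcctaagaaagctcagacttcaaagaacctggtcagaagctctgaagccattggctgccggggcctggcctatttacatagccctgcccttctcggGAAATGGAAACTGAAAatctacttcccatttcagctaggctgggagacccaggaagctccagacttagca
Oas1g: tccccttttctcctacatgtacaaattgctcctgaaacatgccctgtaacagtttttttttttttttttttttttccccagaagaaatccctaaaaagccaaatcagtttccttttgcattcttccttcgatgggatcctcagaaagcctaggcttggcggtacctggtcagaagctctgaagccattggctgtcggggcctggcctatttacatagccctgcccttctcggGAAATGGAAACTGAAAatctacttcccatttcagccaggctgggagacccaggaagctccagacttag
Oas3: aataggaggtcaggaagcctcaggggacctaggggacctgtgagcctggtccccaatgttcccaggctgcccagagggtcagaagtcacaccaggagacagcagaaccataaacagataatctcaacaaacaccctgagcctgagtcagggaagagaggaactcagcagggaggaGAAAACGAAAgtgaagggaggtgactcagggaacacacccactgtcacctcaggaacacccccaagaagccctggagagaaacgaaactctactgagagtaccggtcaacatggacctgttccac
Oasl1: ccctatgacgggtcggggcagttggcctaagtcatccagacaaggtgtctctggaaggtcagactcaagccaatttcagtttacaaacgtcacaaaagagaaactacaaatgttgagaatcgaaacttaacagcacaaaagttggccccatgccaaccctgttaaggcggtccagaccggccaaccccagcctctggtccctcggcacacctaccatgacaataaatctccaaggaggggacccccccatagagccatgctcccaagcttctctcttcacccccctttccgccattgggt
The ISRE core was found in 3 of the 5 windows, against 3.44% of the 32851 windows of all genes. Oas1a and Oas1g each hold 2 overlapping matches within the same stretch of capitals, with first bases 20 and 14 bases before the start in Oas1a and 18 and 12 in Oas1g, and Oas3 holds 1, 75 bases before the start. GAS was found in the Oas1a window, at 98 bases before the start and clear of the ISRE core, against 8.3% of all windows. Neither set of letters is in the Oasl1 or the Oasl2 window.

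Levels below are CPM with library factors from the trimmed mean of M-values over all 17 libraries, and are given in the order of the replicates. Fold changes are log2 values ± standard error (SE), and p-values are from the quasi-likelihood test of edgeR, adjusted by the Benjamini-Hochberg method over every gene tested. A gene was called at an adjusted p under 0.05. The combination and MSA2 were both compared with the same Control libraries.

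**Figure D1:**
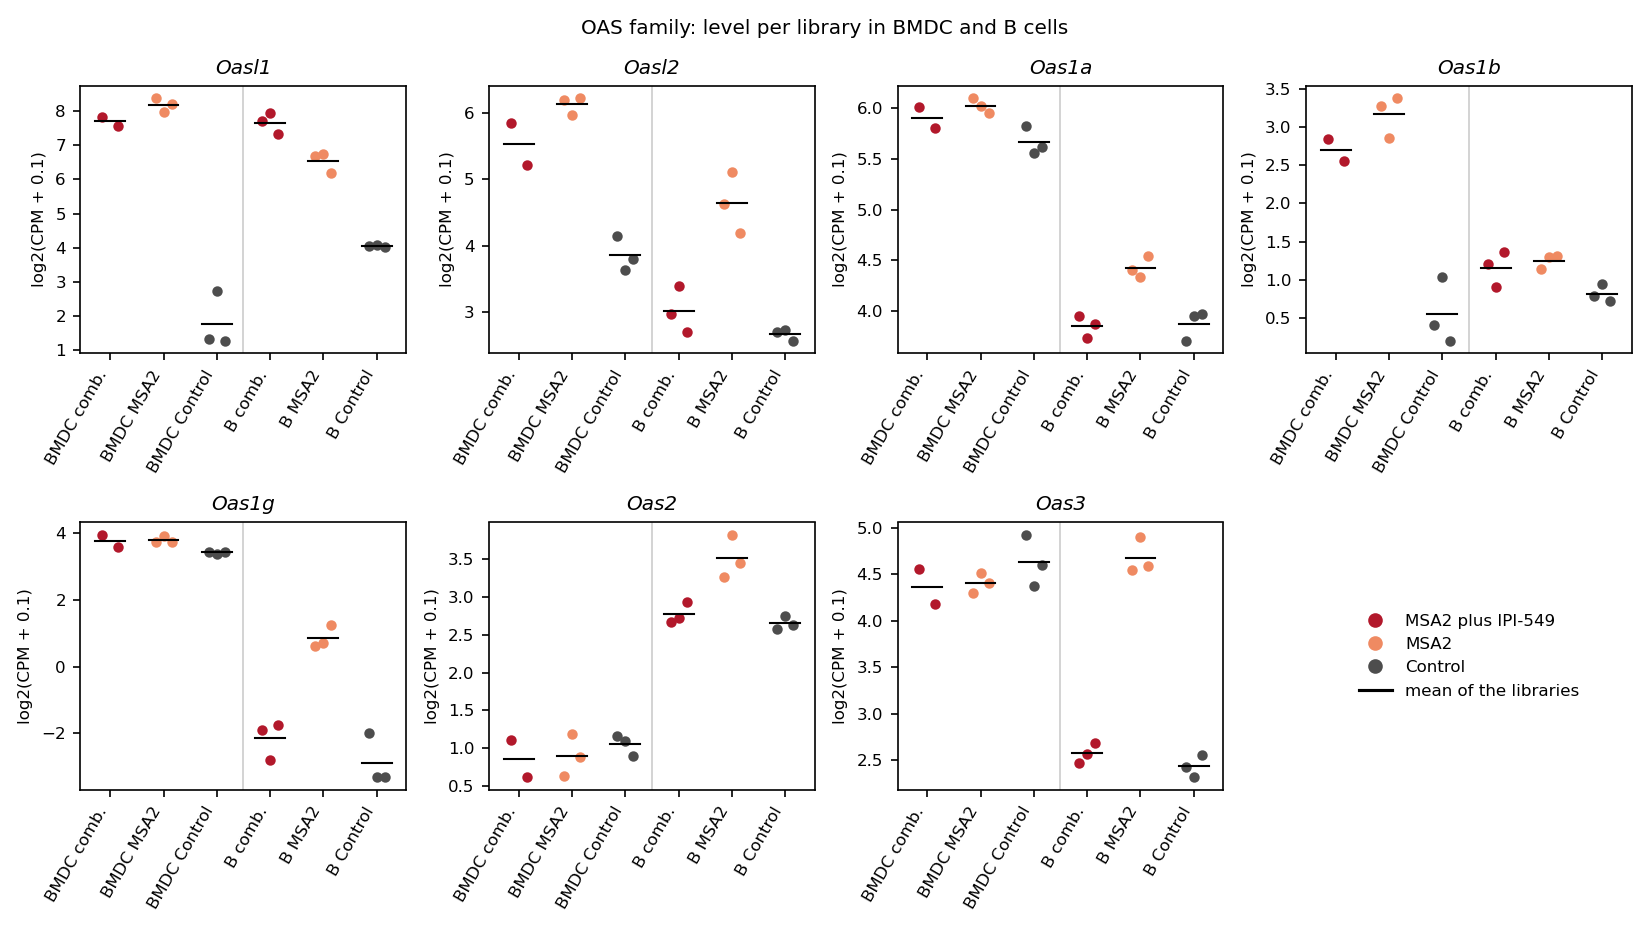
Level of each OAS family gene in every library, as log2 of CPM plus 0.1 (vertical axis, a scale of its own per gene), by group (horizontal axis, BMDC left and B cells right of the grey line); points are libraries and bars are their mean. Oasl1 is high in every drug-treated group, Oas3 and Oas2 are highest with MSA2 among the B cell groups and overlap between the BMDC groups, and Oas1g is near 0 in B cells outside the MSA2 group.

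In BMDC the OAS-like genes and Oas1b were the members called higher with both drug treatments. Oasl1, Oasl2 and Oas1b rose with the combination and with MSA2, Oas1a and Oas1g passed with MSA2, with small fold changes, and not with the combination, and neither Oas2 nor Oas3 passed the test. With the combination 3 of 7 members were called higher than in Control, where 7.51% of the 14614 genes tested were called higher, 5.38% lower and 12.9% in either direction. With MSA2, 5 of 7 were called higher, where 14.6% of genes were called higher, 13.5% lower and 28.2% in either direction. The median log2 fold change of the 7 members was 0.38 in both comparisons, against 0.01 for all genes with the combination and -0.01 with MSA2.

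Oasl1, which in mouse has been reported to hold back translation of the Irf7 messenger RNA, had 226 and 191 CPM in the BMDC combination, 334, 251 and 295 CPM with MSA2, and 2.41, 6.48 and 2.30 CPM in Control. Every treated library was far above every Control library, and the lowest MSA2 library was above both combination libraries. The log2 fold change was 5.76 ± 0.31 for the combination against Control (54.3-fold, adjusted p = 3.8e-07) and 6.25 ± 0.30 for MSA2 against Control (76-fold, adjusted p = 9.31e-08). Control replicate 2, the library with 499 Ifnb1 counts, had the highest Oasl1 level of the Control libraries, and without it the log2 fold changes were 6.47 and 6.95 (adjusted p = 1.08e-08 and 4.93e-09).

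Oasl2, the OAS-like gene whose product makes 2′-5′ oligoadenylates, had 57.3 and 36.9 CPM in the BMDC combination, 73.3, 62.5 and 74.6 CPM with MSA2, and 17.6, 12.3 and 13.8 CPM in Control. The 3 groups did not overlap, with MSA2 highest and Control lowest. Oasl2 rose by a log2 fold change of 1.70 ± 0.18 with the combination (3.26-fold, adjusted p = 7.76e-05) and of 2.27 ± 0.17 with MSA2 (4.82-fold, adjusted p = 2.36e-06).

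Among the Oas1 genes, Oas1b had 7.05 and 5.79 CPM in the combination, 9.61, 7.12 and 10.3 CPM with MSA2, and 1.23, 1.96 and 1.05 CPM in Control. Again the 3 groups did not overlap and stood in the same order as for Oasl2. Oas1b rose by 2.17 ± 0.24 with the combination (4.49-fold, adjusted p = 0.000118) and by 2.64 ± 0.22 with MSA2 (6.21-fold, adjusted p = 6.24e-06), more than either other Oas1 gene.

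Oas1a, an Oas1 copy with synthetase activity, had 64.4 and 56.0 CPM in the combination, 68.6, 65.2 and 61.8 CPM with MSA2, and 56.8, 47.2 and 49.2 CPM in Control. All MSA2 libraries were above all Control libraries, whereas the lower combination library lay within the Control range. The log2 fold change was 0.24 ± 0.09 with the combination (adjusted p = 0.124) and 0.35 ± 0.08 with MSA2 (adjusted p = 0.00954). Oas1g, the other Oas1 copy with synthetase activity, had 15.4 and 11.9 CPM in the combination, 13.1, 15.1 and 13.2 CPM with MSA2, and 10.8, 10.3 and 10.8 CPM in Control. Each treated library was above each Control library, by little. The log2 fold change of Oas1g was 0.38 ± 0.12 with the combination (adjusted p = 0.0631) and 0.38 ± 0.11 with MSA2 (adjusted p = 0.0203). The MSA2 call of Oas1g was lost without Control replicate 1, Control replicate 2 or MSA2 replicate 2 (adjusted p = 0.0505, 0.0701 and 0.0655), and the combination passed without its replicate 2 or without MSA2 replicate 2 (adjusted p = 0.0265 and 0.0444). With the 3 Oas1 rows summed, the log2 fold change was 0.36 ± 0.09 with the combination (adjusted p = 0.0207) and 0.48 ± 0.08 with MSA2 (adjusted p = 0.000908). The sum does not depend on the split of reads between Oas1a and Oas1g, but it also holds Oas1b, which was called on its own. Oas1a and Oas1g were not summed without Oas1b, so the sum does not show that these copies pass with the combination.

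The larger synthetases, built of repeated OAS units, were not called in BMDC. Oas3, which binds long double-stranded RNA, had 23.4 and 18.0 CPM in the combination, 19.6, 22.8 and 21.1 CPM with MSA2, and 30.3, 20.6 and 24.2 CPM in Control. Oas2 had 2.06 and 1.43 CPM in the combination, 1.45, 2.17 and 1.74 CPM with MSA2, and 2.14, 2.03 and 1.76 CPM in Control. For both genes the treated and Control libraries overlapped. The log2 fold changes of Oas3 were -0.26 ± 0.16 with the combination and -0.24 ± 0.14 with MSA2 (adjusted p = 0.327 and 0.231), and those of Oas2 were -0.17 ± 0.24 and -0.13 ± 0.21 (adjusted p = 0.723 and 0.692).

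Between the drug treatments of BMDC, no member was called and none of the 14614 genes was (0%). In edgeR's test 1594 genes had an unadjusted p under 0.05, among them 1 member, Oasl2 (log2 fold change -0.56 ± 0.18, adjusted p = 0.308), while DESeq2 called 162 genes and limma-voom 3, with no member among them. Oasl1 (-0.49 ± 0.25, adjusted p = 0.529) and Oas1b (-0.47 ± 0.22, adjusted p = 0.465) did not pass. The differences of Oas1a, Oas1g, Oas2 and Oas3 lay between -0.11 and 0.00. Without a filter on low counts 561 genes were called, among them Oasl2 (-0.58, adjusted p = 9.56e-08) and Oasl1 (-0.50, adjusted p = 3.27e-07). These fold changes hardly moved from the filtered fit, so the small p-values do not reflect a larger difference. No other setting called a member in this comparison.

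In B cells the members split in another way. With the combination Oasl1 alone was called higher than in Control, 1 of 7 members where 0.686% of 16180 genes were called higher, 0.371% lower and 1.06% in either direction. With MSA2, 6 of 7 members were called higher, all but Oas1b, where 24.9% of genes were called higher, 18.5% lower and 43.4% in either direction. The median log2 fold change of the members was 0.34 with the combination and 2.05 with MSA2, against -0.02 and -0.01 over all genes. Because these are bulk samples, more cells of a type and more RNA per cell cannot be told apart, and the part of the other cells' RNA in the B cell MSA2 values was not tested.

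**Figure D2:**
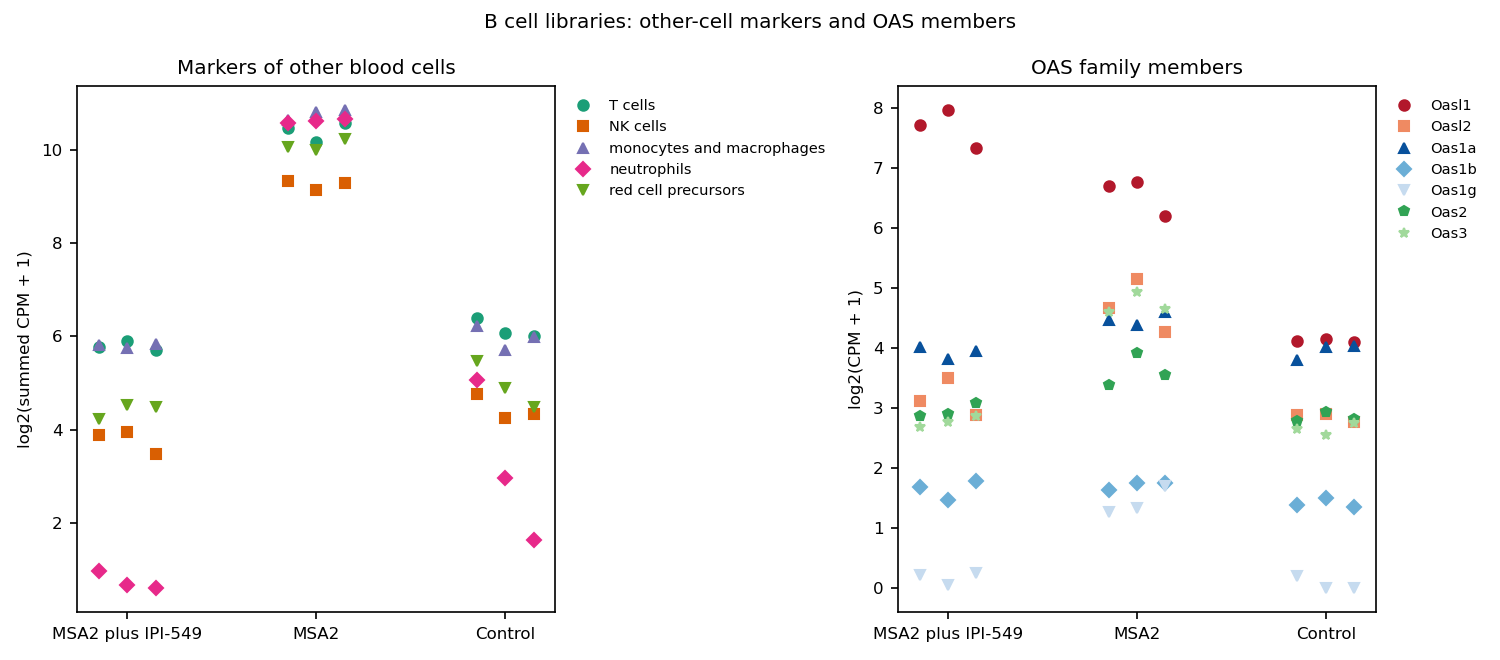
Summed level of the markers of 5 other blood cell types (left, log2 of summed CPM plus 1) and level of each OAS family gene (right, log2 of CPM plus 1) in the 9 B cell libraries, by group on the horizontal axis; each point is a library. All marker sums are higher with MSA2 than in the other groups, as are all members but Oasl1, which is highest in the combination, and Oas1b, which overlaps the combination.

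Oasl1 had 209, 249 and 161 CPM in the B cell combination, 103, 108 and 72.6 CPM with MSA2, and 16.4, 16.8 and 16.2 CPM in Control. The 3 groups did not overlap, and the combination was highest. Oasl1 rose by a log2 fold change of 3.63 ± 0.19 with the combination (12.3-fold, adjusted p = 1.26e-06) and of 2.53 ± 0.18 with MSA2 (5.77-fold, adjusted p = 7.83e-07), and it was higher in the combination than with MSA2 by 1.10 ± 0.17 (2.14-fold, adjusted p = 0.000391). Between the combination and Control libraries, the summed T cell, NK cell and neutrophil markers were lower in the combination without overlap, and the monocyte and macrophage and red cell sums overlapped. The part of other cells in the Oasl1 values was not tested.

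Oasl2 had 7.68, 10.4 and 6.37 CPM in the combination, 24.5, 34.5 and 18.2 CPM with MSA2, and 6.41, 6.50 and 5.80 CPM in Control. The MSA2 libraries stood above all others, and combination and Control overlapped. The log2 fold change of Oasl2 was 0.36 ± 0.23 with the combination (adjusted p = 0.68) and 2.05 ± 0.23 with MSA2 (adjusted p = 3.05e-05).

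Oas3 had 5.43, 5.82 and 6.35 CPM in the combination, 23.2, 29.7 and 24.0 CPM with MSA2, and 5.30, 4.88 and 5.78 CPM in Control. Oas2 had 6.28, 6.48 and 7.53 CPM in the combination, 9.50, 14.1 and 10.8 CPM with MSA2, and 5.87, 6.65 and 6.08 CPM in Control. For both of these large synthetases the MSA2 libraries were above every other library, and the combination overlapped Control. With MSA2 Oas3 rose by 2.27 ± 0.12 (adjusted p = 7.02e-08) and Oas2 by 0.89 ± 0.15 (adjusted p = 0.000466), and with the combination their log2 fold changes were 0.12 ± 0.12 and 0.10 ± 0.15 (adjusted p = 0.813 and 0.879).

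Oas1a had 15.3, 13.2 and 14.5 CPM in the combination, 21.1, 20.0 and 23.2 CPM with MSA2, and 12.9, 15.3 and 15.5 CPM in Control. The MSA2 libraries were the highest and the other groups overlapped, with log2 fold changes of -0.05 ± 0.10 for the combination (adjusted p = 0.922) and 0.56 ± 0.10 for MSA2 (adjusted p = 0.000804). Oas1b had 2.22, 1.78 and 2.47 CPM in the combination, 2.10, 2.36 and 2.38 CPM with MSA2, and 1.63, 1.83 and 1.55 CPM in Control. Its MSA2 libraries were above the Control libraries but not above those of the combination. Oas1b did not pass, at 0.34 ± 0.18 for the combination (adjusted p = 0.588) and 0.45 ± 0.18 for MSA2 (adjusted p = 0.0619), and the MSA2 difference passed where genes had to reach 1 CPM in 3 libraries (0.48, adjusted p = 0.0454).

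Oas1g was almost absent from B cells outside the MSA2 group. It had 8, 2 and 9 counts in the combination libraries, 69, 73 and 102 counts with MSA2, and 8, 0 and 0 counts in Control, or 0.169, 0.0444 and 0.197 CPM, 1.42, 1.54 and 2.25 CPM, and 0.153, 0 and 0 CPM. Every MSA2 library was above every other. The log2 fold change was 1.27 ± 0.94 with the combination (adjusted p = 0.724) and 4.93 ± 0.72 with MSA2 (adjusted p = 0.000206). All 8 Control counts came from replicate 1, which among the Control libraries had the highest T cell, NK cell, monocyte and macrophage, neutrophil and red cell marker sums. The part of other cells in these counts was not tested. Without replicate 1 Control is at 0, so that the fitted MSA2 value of 9.35 (adjusted p = 5.74e-05) is no measure of size. For the 3 Oas1 rows summed, the log2 fold changes were 0.01 ± 0.10 with the combination (adjusted p = 0.996) and 0.65 ± 0.10 with MSA2 (adjusted p = 0.000243).

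In the direct comparison of the combination with MSA2 in B cells, 1 member was called higher and 5 were called lower, where 14.1% of genes were called higher, 22.9% lower and 37% in either direction. Oasl1 was the member called higher. The log2 fold changes of those called lower were -3.66 ± 0.63 for Oas1g (adjusted p = 0.000737), -2.16 ± 0.12 for Oas3 (adjusted p = 9.28e-08), -1.69 ± 0.23 for Oasl2 (adjusted p = 0.000129), -0.79 ± 0.15 for Oas2 (adjusted p = 0.00114) and -0.61 ± 0.10 for Oas1a (adjusted p = 0.000489). In each of the 5, all combination libraries were below all MSA2 libraries. Oas1b did not pass (-0.11 ± 0.18, adjusted p = 0.663). Over the same groups all 12 B cell markers were called higher in the combination, and all 12 T cell, 10 NK cell, 15 monocyte and macrophage, 12 neutrophil and 9 red cell markers were called lower. The median log2 fold change of the B cell markers was 0.9, beside 1.10 for Oasl1. The part of the mix of cells in the Oasl1 difference and in the 5 lower members was not tested.

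**Figure D3:**
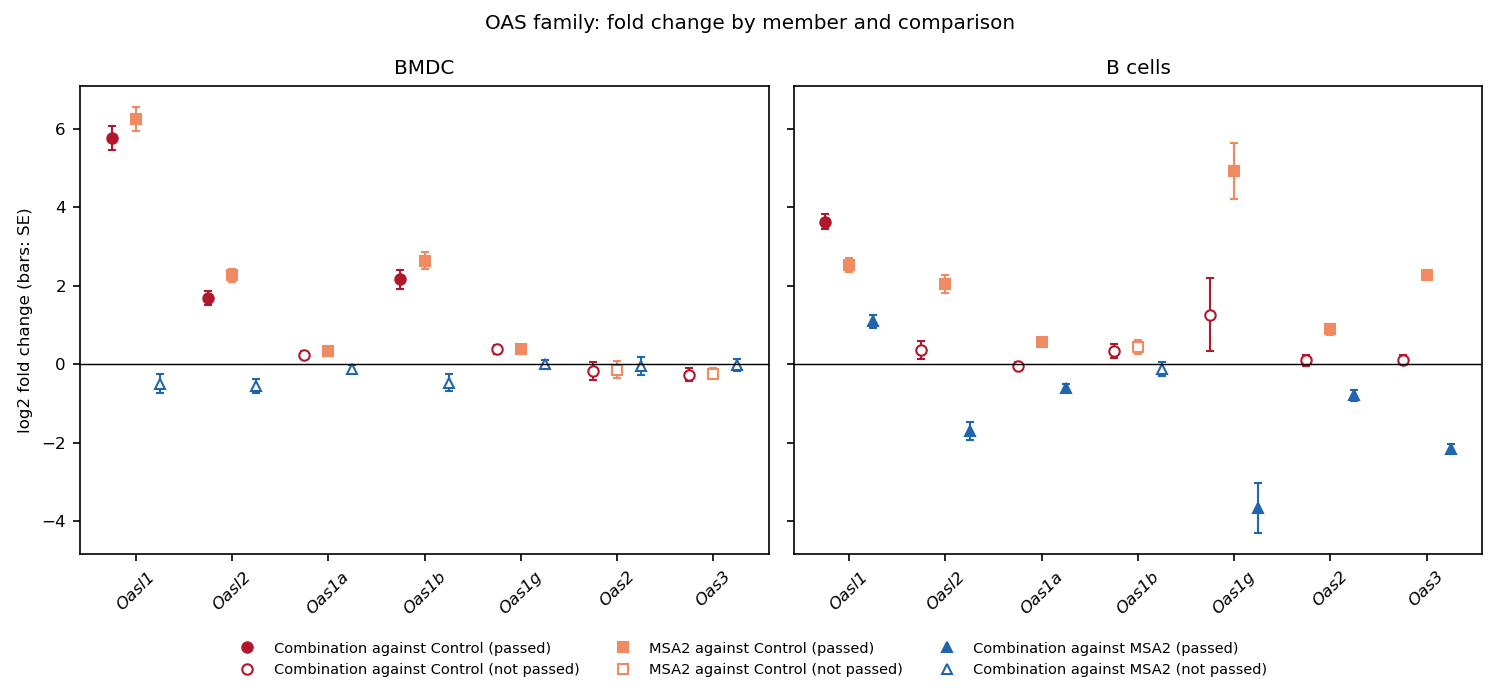
Log2 fold change of each OAS family gene (vertical axis; bars are the SE) in 3 comparisons, for BMDC on the left and B cells on the right; filled symbols passed at an adjusted p under 0.05 and open symbols did not. Oasl1 stands above 0 against Control in all 4 drug-against-Control comparisons, while the combination lies below MSA2 for 5 members in B cells.

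The cell types differed before treatment. In Control, 6 of 7 members differed between BMDC and B cells, 4 higher and 2 lower in BMDC, where 39.3% of 17740 genes were called higher, 40.6% lower and 79.9% in either direction, so a call alone says little here. The levels of Oas1g (7.53 ± 0.41, adjusted p = 6.01e-12), Oas3 (2.23 ± 0.15, adjusted p = 9.33e-11), Oas1a (1.81 ± 0.10, adjusted p = 6.48e-12) and Oasl2 (1.22 ± 0.23, adjusted p = 7.97e-05) were higher in Control BMDC than in Control B cells on the log2 scale. Those of Oasl1 (-2.10 ± 0.28, adjusted p = 1.91e-06) and Oas2 (-1.65 ± 0.18, adjusted p = 1.5e-07) were lower in BMDC, and Oas1b did not pass (-0.22 ± 0.22, adjusted p = 0.365). Without BMDC Control replicate 2, the Oasl1 difference was -2.80 (adjusted p = 7.02e-09) and Oas1b passed (-0.55, adjusted p = 0.0359). Without B cell Control replicate 1, the fitted Oas1g difference was 11.86 (adjusted p = 6.25e-12) against libraries at 0.

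Each member had its own order of levels over the 6 groups. Oasl1 fell in the order BMDC MSA2 (294 CPM on average), BMDC combination (208 CPM), B cell combination (206 CPM), B cell MSA2 (94.6 CPM), B cell Control (16.5 CPM) and BMDC Control (3.73 CPM), and of these neighbours only the BMDC and B cell combinations overlapped. Oasl2 fell in the order BMDC MSA2, BMDC combination, B cell MSA2, BMDC Control, B cell combination and B cell Control, and only the last 2 overlapped. For Oas1a, all BMDC groups were above all B cell groups, and B cell MSA2 stood clear of its neighbours. Oas1g had the same split, with BMDC Control (10.6 CPM) above B cell MSA2 (1.74 CPM). Oas2 ran the other way, with every B cell library above every BMDC library and B cell MSA2 (11.5 CPM) on top. Oas3 in B cell MSA2 (25.6 CPM) overlapped its level in BMDC Control (25 CPM), BMDC MSA2 (21.2 CPM) came next and the BMDC combination (20.7 CPM) after it, each overlapping its neighbour, and the B cell combination and Control were clear below. Oas1b was highest in BMDC MSA2 (9.0 CPM) and the BMDC combination (6.42 CPM), and its other 4 groups, from 2.28 down to 1.41 CPM, overlapped from neighbour to neighbour.

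The difference between the cell types in the response itself was tested in a joint fit of all 6 groups. For MSA2 against Control it was called for 5 of 7 members, 2 higher and 3 lower in BMDC, where 16.3% of genes were called higher, 20.7% lower and 37% in either direction. The response was larger in BMDC for Oasl1, by 3.74 ± 0.37 on the log2 scale (adjusted p = 2.19e-07), and for Oas1b, by 2.20 ± 0.30 (adjusted p = 1.07e-05). It was smaller in BMDC for Oas1g (-4.53 ± 0.56, adjusted p = 4.01e-06), Oas3 (-2.51 ± 0.20, adjusted p = 1.08e-08) and Oas2 (-1.01 ± 0.25, adjusted p = 0.00409). Oasl2 (0.22 ± 0.30, adjusted p = 0.619) and Oas1a (-0.20 ± 0.14, adjusted p = 0.274) did not pass. With the 3 Oas1 rows summed the difference was -0.16 ± 0.13 (adjusted p = 0.372) and did not pass. The sum is mostly Oas1a, which in B cells with MSA2 averaged 21.4 CPM against 1.74 CPM for Oas1g. It therefore cannot decide the Oas1g call, for which the split of reads with Oas1a is uncertain. The sum also says little about Oas1b, which shares at most 1.35% of its windows with either other gene. The Oasl1 difference was 4.44 without BMDC Control replicate 2 (adjusted p = 1.53e-09), and the Oas1g difference was -8.85 without B cell Control replicate 1 (adjusted p = 3.17e-07). In these values, as in the last comparison below, the B cell side holds the MSA2 libraries with other cells' markers, whose part was not tested.

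For the combination against Control, 3 of 7 members were called, all with a larger response in BMDC, where 2.14% of genes were called higher, 0.902% lower and 3.04% in either direction. They were Oasl1 (2.12 ± 0.38, adjusted p = 0.0032), Oas1b (1.80 ± 0.31, adjusted p = 0.00232) and Oasl2 (1.31 ± 0.33, adjusted p = 0.0332). Without BMDC Control replicate 2 the Oasl1 difference was 2.82 (adjusted p = 1.36e-05). The Oasl2 call was lost without BMDC combination replicate 1, BMDC Control replicate 2 or 3, B cell combination replicate 1 or 3, or B cell Control replicate 1 or 2, with an adjusted p of 0.0687 to 0.276. Oas3 (-0.41 ± 0.21, adjusted p = 0.412) and the other 3 members did not pass. For the summed Oas1 rows the difference was 0.32 ± 0.14 and did not pass (adjusted p = 0.307).

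For the step from MSA2 to the combination, 5 of 7 members were called, 4 higher and 1 lower in BMDC, where 15.3% of genes were called higher, 8.83% lower and 24.1% in either direction. The step was lower in BMDC for Oasl1 (-1.62 ± 0.35, adjusted p = 0.00214). It was higher in BMDC for Oas1g (3.61 ± 0.49, adjusted p = 1.64e-05), Oas3 (2.09 ± 0.21, adjusted p = 2.87e-07), Oasl2 (1.09 ± 0.31, adjusted p = 0.0154) and Oas1a (0.46 ± 0.14, adjusted p = 0.0242). Without BMDC combination replicate 1 the calls of Oasl2 (0.72, adjusted p = 0.168) and Oas1a (0.35, adjusted p = 0.166) were lost. The Oas1a call was also lost without B cell combination replicate 2, B cell MSA2 replicate 3 or BMDC MSA2 replicate 3 (adjusted p = 0.0637, 0.0504 and 0.0601). The summed Oas1 rows passed (0.48 ± 0.14, adjusted p = 0.0152). Oas2 (0.71 ± 0.27, adjusted p = 0.0704) passed without B cell MSA2 replicate 1, BMDC combination replicate 2 or BMDC MSA2 replicate 2 (adjusted p = 0.0413, 0.0416 and 0.029).

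To set the genes beside each other, CPM was divided by the length of each gene's longest coding transcript in GENCODE M21. On this scale the 7 genes summed to 158 ± 21.7 CPM per kb in the BMDC combination (SD, n = 2), 208 ± 21.4 with MSA2 and 45.4 ± 3.93 in Control (SD, n = 3 each), and to 109 ± 20.0 in the B cell combination, 73.5 ± 10.9 with MSA2 and 20.9 ± 0.816 in Control (SD, n = 3 each). The drug-treated groups did not overlap their Control, and the B cell combination was above B cell MSA2. Oasl1 made up 60.6% ± 1.18 of the sum in the BMDC combination, 64.4% ± 2.56 with MSA2 and 3.85% ± 2.64 in Control. In B cells its share was 86.5% ± 2.64 in the combination, 58.7% ± 4.38 with MSA2 and 36.1% ± 1.31 in Control. Oas1a, the most abundant member per length in BMDC Control at 59.6% ± 1.28, fell to a share of 20.3% ± 0.792 in the BMDC combination and 16.7% ± 1.60 with MSA2 while its own level changed little. In B cells Oas1a made up 7.17% ± 1.61 of the sum in the combination, 15.8% ± 3.70 with MSA2 and 36.9% ± 2.40 in Control. On this scale Oasl1 thus made up most of the sum of the 7 genes in each drug-treated group. The part of other cells' RNA in the B cell MSA2 shares was not tested.

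**Figure D4:**
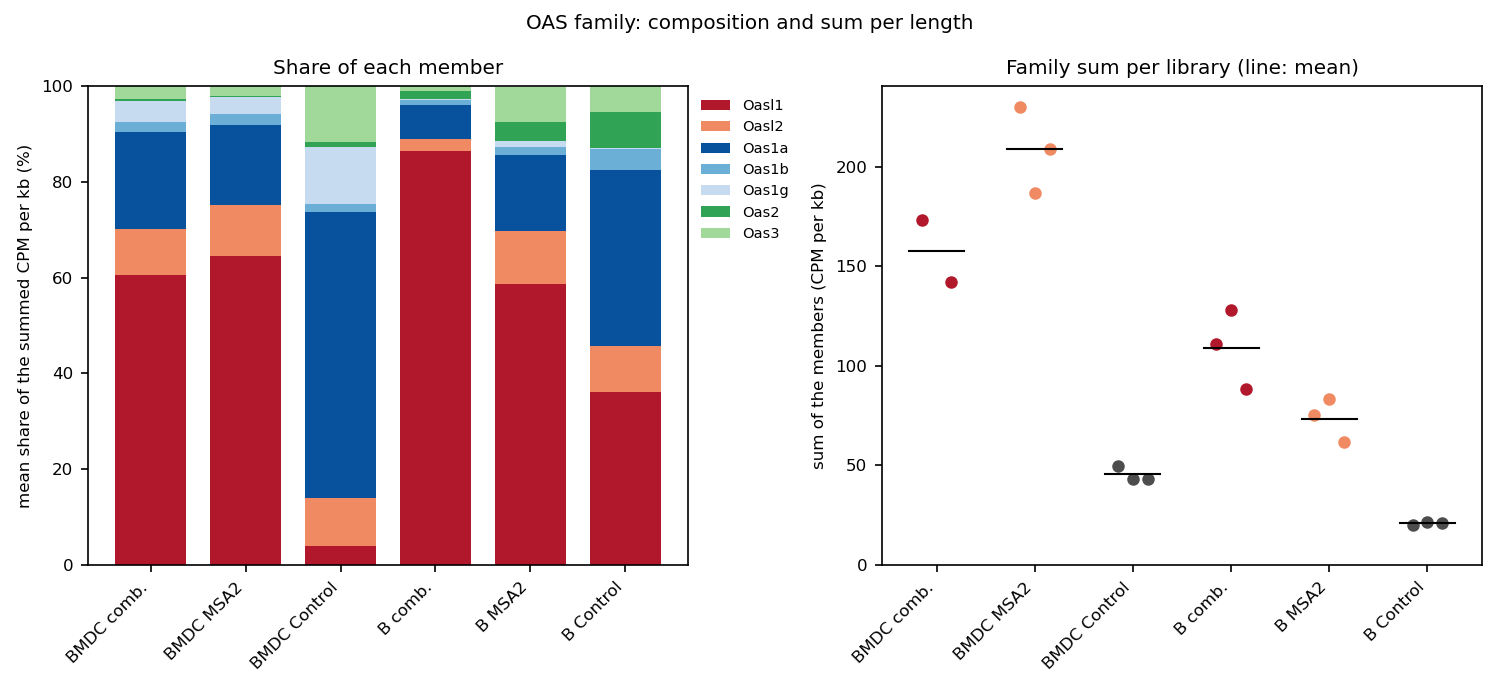
Mean share of each OAS family gene in the summed CPM per kb (left, percent, stacked bars) and the sum in each library (right, CPM per kb; points are libraries and lines their mean), for the 6 groups on the horizontal axis. Oasl1 takes 58.7 to 86.5% of the sum in the 4 drug-treated groups and Oas1a is the largest member in BMDC Control.

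Within each cell type the members did not move as a block. These correlations of log2 CPM are over libraries that share their groups, and are given as a description. Those of B cells include the MSA2 libraries with other cells' markers, whose part in them was not tested. Over the 8 BMDC libraries, Oasl1 followed Oas1b (r = 0.99) and Oasl2 (r = 0.95), whereas Oas3 ran against Oasl1 (r = -0.61) and with Oas2 (r = 0.71). Over the 9 B cell libraries, Oas3 followed Oas2 and Oasl2 (r = 0.95 each), and Oasl1 had r between 0.12 (Oas1a) and 0.65 (Oas1b) with the others. Among the genes whose profile was most like the mean standardized profile of the 7 members were Ifnl2, Selenom, Rapgef2 and Crtc3 in B cells (r = 0.988, 0.986, 0.984 and 0.983) and Dnajc10, Oscp1, Dnajc3, Lpar4 and Ppp6c in BMDC (r = 0.979, 0.975, 0.970, 0.967 and 0.954).

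Pde12, a phosphodiesterase that breaks down the 2′-5′ oligoadenylates made by the synthetases, averaged 25.1 CPM in the BMDC combination, 26.6 CPM with MSA2 and 26.4 CPM in Control, and did not pass (-0.06 ± 0.09 for the combination against Control, adjusted p = 0.73, and 0.01 ± 0.08 for MSA2, adjusted p = 0.954). In B cells Pde12 averaged 51.1 CPM in the combination, 34.8 CPM with MSA2 and 53.9 CPM in Control. It was lower than Control with MSA2 (-0.62 ± 0.15, adjusted p = 0.00549), did not pass with the combination (-0.10 ± 0.15, adjusted p = 0.882), and was higher in the combination than with MSA2 (0.52 ± 0.15, adjusted p = 0.0162). The B cell markers had median log2 fold changes of -0.87 for MSA2 against Control and 0.9 for the combination against MSA2. The part of the mix of cells in the Pde12 values was not tested.

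Upstream, 14 genes of interferon signalling had a row. In BMDC 3 were called higher (Ifnb1, Irf7 and Stat2) and 3 lower with the combination, where 7.51% and 5.38% of all genes were, and 6 higher (those 3 with Irf1, Irf9 and Usp18) and 3 lower with MSA2, where 14.6% and 13.5% were. The 3 lower genes were Socs1, a brake on JAK kinases (-1.47 with the combination, adjusted p = 0.0142, and -0.92 with MSA2, adjusted p = 0.0318), and the receptor chains Ifnar1 (-0.34 and -0.38, adjusted p = 0.00296 and 0.000256) and Ifnar2 (-0.25 and -0.34, adjusted p = 0.0388 and 0.00187). In B cells 2 were called higher (Ifnb1 and Irf7) and 0 lower with the combination, where 0.686% and 0.371% of all genes were, and 9 higher and 0 lower with MSA2, where 24.9% and 18.5% were. Besides Ifnb1, Irf7 and Usp18, the 9 included Socs1 (1.41, adjusted p = 0.0196), Irf1 (0.76, adjusted p = 0.0145), Ifnar2 (0.24, adjusted p = 0.0216), Jak1 (0.23, adjusted p = 0.0257) and Tyk2 (0.19, adjusted p = 0.0348). In these B cell MSA2 values the part of the other cells' RNA was not tested. The median log2 fold change of the 14 genes was -0.01 and 0.04 in BMDC with the combination and MSA2, and 0.09 and 0.24 in B cells. Ifnb1 had 698 and 653 CPM in the BMDC combination, 1140, 1020 and 1030 CPM with MSA2, and 0, 11.6 and 0.0598 CPM in Control. In B cells it had 1.21, 1.49 and 0.285 CPM in the combination, 0.927, 0.694 and 1.15 CPM with MSA2, and 0 counts in each Control library. Every treated BMDC library was far above every treated B cell library for Ifnb1, whereas the Oasl1 levels of the combination libraries overlapped between the cell types.

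Irf7, the interferon-induced factor whose messenger RNA Oasl1 acts on in mouse, was higher than Control by 0.69 ± 0.14 in the BMDC combination (adjusted p = 0.00835) and by 1.29 ± 0.13 in BMDC with MSA2 (adjusted p = 2.31e-05). In B cells Irf7 was higher by 1.10 ± 0.12 with the combination (adjusted p = 0.000472) and by 1.29 ± 0.12 with MSA2 (adjusted p = 4.64e-06), so that, like Oasl1 and Ifnb1, it was raised in all 4. Stat2 and Irf9, which encode transcription factors that act at the ISRE, had smaller fold changes. Stat2 was called in BMDC with the combination (0.58 ± 0.12, adjusted p = 0.00869) and with MSA2 (0.76 ± 0.11, adjusted p = 0.000364), and Irf9 in BMDC with MSA2 (0.35 ± 0.09, adjusted p = 0.0134). Usp18, the interferon-induced brake on the receptor, was higher than Control with MSA2 in BMDC (1.3 ± 0.23, adjusted p = 0.00137), as was Irf1 (1.23, adjusted p = 0.00237), and in B cells (1.64 ± 0.17, adjusted p = 1.25e-05). In B cells Usp18 was lower in the combination than with MSA2 (-1.31 ± 0.16, adjusted p = 7.09e-05), as were Ifnar2 (-0.52, adjusted p = 0.000192), Jak1 (-0.21, adjusted p = 0.0431) and 5 OAS members, while Irf7 did not pass (-0.19 ± 0.11, adjusted p = 0.224). All B cell differences that involve MSA2 alone rest on the libraries with other cells' markers, whose part was not tested.

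The other sensors of RNA, 8 genes with a row, give the setting of the family. In BMDC 4 were called higher and 1 lower with the combination, where 7.51% and 5.38% of all genes were, and 5 higher and 1 lower with MSA2, where 14.6% and 13.5% were. In B cells none was called with the combination (1.06% of all genes), and 2, Ifih1 and Zbp1, were called higher with MSA2, a share near the 24.9% of all genes. The median log2 fold change of the 8 genes was 0.45 and 0.94 in BMDC with the combination and MSA2, and 0.10 and 0.19 in B cells. Ifih1, which encodes the long double-stranded RNA sensor MDA5, was higher than Control by 2.89 ± 0.17 in the BMDC combination (adjusted p = 6.59e-07) and by 3.66 ± 0.16 in BMDC with MSA2 (adjusted p = 4.43e-08). In B cells the difference of Ifih1 was 0.89 ± 0.21 with the combination (adjusted p = 0.093) and 2.47 ± 0.21 with MSA2 (adjusted p = 2.76e-06). Ddx58, which encodes RIG-I, rose in BMDC with the combination (1.13 ± 0.14, adjusted p = 0.000237) and with MSA2 (1.55 ± 0.13, adjusted p = 5.12e-06) and did not pass in B cells (0.10 ± 0.07, adjusted p = 0.697, and 0.08 ± 0.07, adjusted p = 0.361). Zbp1, a sensor of Z-form nucleic acid, was higher by 0.68 in the BMDC combination (adjusted p = 0.000666), 1.11 in BMDC with MSA2 (adjusted p = 3.23e-06) and 0.68 in B cells with MSA2 (adjusted p = 0.000265). The other calls in BMDC were Dhx58, the RIG-I-like LGP2 (0.84 with the combination, adjusted p = 0.00137, and 1.08 with MSA2, adjusted p = 5.3e-05), Tlr3 with MSA2 (0.80, adjusted p = 0.00149), Mavs with MSA2 (-0.27, adjusted p = 0.0125) and Eif2ak2, the gene of PKR, with the combination (-0.41, adjusted p = 0.03). Ifih1 and Zbp1 were lower in the B cell combination than with MSA2 (-1.58 and -0.45, adjusted p = 7.47e-05 and 0.00467). For the B cell MSA2 values of these sensors too, the part of other cells' RNA was not tested.

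The tables hold 5 further Oas rows that are not among the 7 genes. Oas1c had 5.06 to 8.45 CPM over all libraries and was not called in any comparison within a cell type. Oas1d, Oas1e and Oas1h had at most 9 counts in any library and Oas1f had 0 counts, and they were not tested.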

How the data were processed

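The authors deposited a table of RSEM expected counts per gene for each cell type, and every value in them is a whole number. The submitters' processing notes name RSEM 1.3.3, STAR 2.7.8a, cutadapt 4.8, MultiQC 1.20 and FastQC 0.11.8, and the build GRCm38 (mm10). RSEM divides reads that match several genes, which bears on Oas1a and Oas1g. The strand setting and the annotation release are not given in the sources used here. The sample titles gave the groups, because all libraries have Control as their treatment label.

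These counts entered edgeR 4.0.16 under R 4.3.3. Library factors were TMM (trimmed mean of M-values), low genes were removed by filterByExpr, and the quasi-likelihood F test was run once per cell type and once over all 17 libraries for differences between cell types. The SE is the log2 fold change divided by the root of F. Log2 CPM for correlations used a prior count of 2. The family members and the gene lists were chosen with earlier results of these data known. Of each list, the genes called in the comparison described are named, and Stat2, Irf9 and Irf7 are always given. Some genes these rules name are not reported here. For likeness, genes among the 5 with the highest Pearson r to the mean member profile are named per cell type. Alternatives were other library factors, filters and tools (DESeq2 1.42.0, limma-voom in limma 3.58.1), the title suffix as a replicate block, summed Oas1 rows and leaving out each library. The tests were tried on simulated counts with known changes. Same-suffix libraries deviated together at r of -0.04 to 0.26 in B cells (3 of 9 pairs above 0.1) and -0.11 to 0.13 in BMDC (1 of 7), so the suffix was not taken to pair them. Protein sequences were not used here.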

Additional observations from a re-analysis of the deposited data

Results flagged for a closer look

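The responses of BMDC and B cells differed by a test of the difference itself for 13 values, all as BMDC minus B cells on the log2 scale with edgeR's adjusted p. In the response to MSA2 the differences were 3.74 for Oasl1 (adjusted p = 2.19e-07), 2.20 for Oas1b (adjusted p = 1.07e-05), -4.53 for Oas1g (adjusted p = 4.01e-06), -2.51 for Oas3 (adjusted p = 1.08e-08) and -1.01 for Oas2 (adjusted p = 0.00409). In the response to the combination they were 2.12 for Oasl1 (adjusted p = 0.0032), 1.80 for Oas1b (adjusted p = 0.00232) and 1.31 for Oasl2 (adjusted p = 0.0332). In the step from MSA2 to the combination they were -1.62 for Oasl1 (adjusted p = 0.00214), 3.61 for Oas1g (adjusted p = 1.64e-05), 2.09 for Oas3 (adjusted p = 2.87e-07), 1.09 for Oasl2 (adjusted p = 0.0154) and 0.46 for Oas1a (adjusted p = 0.0242). All differences in the response to MSA2 and in the step from MSA2 to the combination rest on the B cell MSA2 libraries. These had 1150 to 1520 CPM of T cell and 1520 to 1630 CPM of neutrophil markers, and the part of those cells was not tested.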

How the results depend on the processing

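The number of members called per comparison was unchanged or within 1.5 times under other library factors, filters, tools, fits of the compared groups alone and the replicate block, with these exceptions. Without a filter, 2 members were called between the combination and MSA2 in BMDC. When each library was left out in turn, the members called ranged from 3 to 6 for the step from MSA2 to the combination between cell types, with 3 without BMDC combination replicate 1, which leaves 1 library in that group whose spread is taken from the other groups. They ranged from 2 to 3 for the response to the combination, 3 to 4 for the combination and 4 to 5 for MSA2 against Control in BMDC, and 6 to 7 for Control BMDC against Control B cells. With the Oas1 rows summed, the 3 Oas1 genes share 1 value. It is mostly Oas1a, so it cannot decide the Oas1g calls, and it is no new estimate of Oas1b, which shares few windows with the others. Between cell types the sum was -0.16 for the response to MSA2 (adjusted p = 0.372). The sum was 0.32 for the response to the combination (adjusted p = 0.307), 0.48 for the step from MSA2 to the combination and 1.95 in Control. Members called were not counted with these rows summed. Over single members, 1406 values kept their direction and side of the threshold, 14 gained a call, 18 lost it and 3 turned. These counts include the summed value set beside each Oas1 gene, and the 3 that turned are that value set beside Oas1b. The Oasl2 difference in the response to the combination also lost its call in limma-voom (adjusted p = 0.0733), and Oas1g passed for the combination against Control in BMDC without a filter (adjusted p = 0.0276). The replicate block, which left the members called at 5, 3 and 0 in BMDC and 6, 1 and 6 in B cells (MSA2 against Control, the combination against Control and the combination against MSA2), 5, 3 and 5 for the differences between the cell types in these and 6 in Control, changed no member's call. Counts over all genes moved more. In B cells 171 genes were called for the combination against Control, 359 with no filter, 391 in DESeq2, 260 with the replicate block and 91 to 220 with a library left out. Between the combination and MSA2 in BMDC, 0 genes became 561 with no filter, 162 in DESeq2, 3 in limma-voom, 13 with these groups alone and 0 to 99 with a library left out. For the response to the combination, 539 became 818 with no filter, 888 in DESeq2 and 246 to 654 with a library left out, and for the combination against Control in BMDC 1883 became 843 to 2177. Unscaled totals or other factors moved member levels by 0.949 to 1.10 times. Unrounded expected counts were not run, since every deposited value is whole. Depth limits Oas1g in B cells, at 8 counts over the Control libraries.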
